A study of Mus musculus with 24 samples.

Results

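Mitochondrial complex I, the NADH dehydrogenase of the respiratory chain, was followed through its nuclear genes in mouse gastrocnemius. The genes were chosen by name, as protein-coding nuclear genes whose symbol begins with Nduf, and 46 of the 55416 genes in the count table met this rule. They comprised 36 subunits of the complex, 8 assembly factors (symbols beginning with Ndufaf) and 2 genes that carry the name but stand outside the complex. These were Ndufa4, now placed in complex IV, and Ndufa4l2, its hypoxia-induced relative. Of 51 Nduf-named genes, 5 were left out by their annotated type. One of these, Ndufb1, is typed as a long noncoding RNA (as Ndufb1-ps) in the GENCODE annotation used for names and as a protein-coding gene in RefSeq, so it was kept out of every count and its values are given apart.

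Complex I oxidises NADH, passes the electrons to ubiquinone and pumps protons across the inner mitochondrial membrane. Its N module binds NADH, its Q module reduces ubiquinone, and its proximal and distal membrane modules carry the proton pumps, whose core proteins are encoded by the mitochondrial genome. Assembly factors put the modules together and are not part of the finished enzyme, which is abundant in oxidative muscle fibres.

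The study asked how restricted movement in a small mouse cage (SMC) alters skeletal muscle in each sex. RNA sequencing counts were available for 24 mice of the strain labelled C56BL6J (C57BL/6J in the study's methods), with 6 mice in each of 4 groups: male sham, male SMC, female sham, female SMC. Sham mice were not confined and SMC mice were held in the small cage for 8 weeks, and the mice bought for these experiments were 8 weeks old. The labels name no transgene or drug in any group and the tissue as skeletal muscle, and mice of some experiments were housed in pairs, so mice of 1 group may have shared a cage.

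Total counts lay between 23026627 and 36880413 per library, and the 46 genes took 0.242% to 0.466% of them. All 46 were among the 16408 genes that passed the filter on low counts. Levels are given as CPM (read counts scaled to the size of the library), and a library is named by its group and replicate number. The 10 slow fibre markers stood far below the rest in 2 libraries: their summed level was 91.4 CPM in male sham replicate 4 and 76.4 CPM in female sham replicate 7, against group medians of 1697 CPM in male sham and 2196 CPM in female sham. Male SMC replicate 14 had the lowest sum of its group, 715 CPM against a median of 2280 CPM. Summed markers of muscle fibres lay between 113919 and 298686 CPM in the 24 libraries. Summed adipocyte markers (6 genes) ranged from 3.87 to 83.7 CPM in male sham, 6.96 to 41.4 CPM in male SMC, 19.02 to 92.4 CPM in female sham and 16.3 to 183 CPM in female SMC. In bulk muscle, fewer cells of a type and less RNA per cell cannot be told apart.

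Promoters of complex I genes are shown because every subunit had a higher mean in sham males than in sham females, as described further on, and because Ndufb1 differed most clearly between SMC and sham females. RefSeq promoter sequences on GRCm38.p6, from 250 bases before to 50 bases after the transcription start, were matched by symbol for 40 of the 46 genes. The 6 sequences are written 5′ to 3′ on the gene's strand, and capitals mark matches, on either strand, to the motif letters of NRF1 (GCGCA, any base, GCGC), ETS factors (CCGGAAG) and YY1 (AANATGGCG).
Ndufb1, chr12:101975689-101975988, minus strand: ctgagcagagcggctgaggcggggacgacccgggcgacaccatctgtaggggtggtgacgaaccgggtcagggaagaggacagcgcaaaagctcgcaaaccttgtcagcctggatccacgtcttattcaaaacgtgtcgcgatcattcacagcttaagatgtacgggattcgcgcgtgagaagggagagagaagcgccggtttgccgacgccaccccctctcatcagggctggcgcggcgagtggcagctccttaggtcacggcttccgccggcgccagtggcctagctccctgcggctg
Ndufb4, chr16:37654319-37654618, minus strand: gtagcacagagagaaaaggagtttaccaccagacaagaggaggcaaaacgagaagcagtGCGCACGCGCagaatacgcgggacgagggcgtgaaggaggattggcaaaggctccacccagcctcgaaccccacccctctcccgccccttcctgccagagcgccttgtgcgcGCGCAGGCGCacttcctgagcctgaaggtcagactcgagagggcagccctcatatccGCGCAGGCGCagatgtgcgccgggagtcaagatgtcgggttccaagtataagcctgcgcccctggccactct
Ndufs5, chr4:123718137-123718436, minus strand: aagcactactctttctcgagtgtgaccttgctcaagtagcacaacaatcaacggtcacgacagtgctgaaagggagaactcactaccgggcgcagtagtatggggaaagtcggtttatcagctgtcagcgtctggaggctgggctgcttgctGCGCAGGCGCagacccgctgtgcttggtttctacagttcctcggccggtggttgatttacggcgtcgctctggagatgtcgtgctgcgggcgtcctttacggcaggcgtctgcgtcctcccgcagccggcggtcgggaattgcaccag
Ndufs4, chr13:114388045-114388344, minus strand: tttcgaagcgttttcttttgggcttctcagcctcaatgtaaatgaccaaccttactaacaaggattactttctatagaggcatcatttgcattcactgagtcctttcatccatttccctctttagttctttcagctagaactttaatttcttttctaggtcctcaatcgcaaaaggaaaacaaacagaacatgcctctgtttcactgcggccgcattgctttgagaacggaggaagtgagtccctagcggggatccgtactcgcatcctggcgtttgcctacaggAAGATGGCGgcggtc
Ndufb6, chr4:40279372-40279671, minus strand: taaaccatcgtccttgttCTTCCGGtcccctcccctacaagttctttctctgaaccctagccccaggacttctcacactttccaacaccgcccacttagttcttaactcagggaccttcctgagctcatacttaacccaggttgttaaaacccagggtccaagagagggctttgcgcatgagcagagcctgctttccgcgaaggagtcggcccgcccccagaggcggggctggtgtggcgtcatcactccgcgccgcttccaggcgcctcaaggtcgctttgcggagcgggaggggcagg
Ndufaf8, chr11:120098684-120098983, plus strand: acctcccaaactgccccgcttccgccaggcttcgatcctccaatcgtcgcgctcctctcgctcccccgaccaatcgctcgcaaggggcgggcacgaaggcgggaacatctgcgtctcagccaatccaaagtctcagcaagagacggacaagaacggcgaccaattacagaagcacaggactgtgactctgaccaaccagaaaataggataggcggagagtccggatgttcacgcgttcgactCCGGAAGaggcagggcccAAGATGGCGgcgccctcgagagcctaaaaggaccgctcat
Ndufb1 was shown for its difference between SMC and sham females, Ndufb4, Ndufs5 and Ndufs4 for their higher mean in sham males, Ndufb6 for its lower mean in SMC females and Ndufaf8 as an assembly factor. Other genes at an unadjusted edgeR p under 0.05 in the same comparisons are not shown. Of these, Ndufa12, Ndufa13, Ndufb5 and Ndufa4, also higher in sham males, held no match to the letters searched. Neither did Ndufb2 and Ndufa1, also lower in SMC females. For Ndufb9 and Ndufa2, also at that p, no promoter sequence was matched. Ndufb4, a distal membrane subunit, held 3 NRF1 matches in its window, Ndufs5, a proximal membrane subunit, held 1, and Ndufb1 held no match to any of these letters. Over all windows, NRF1 letters were found in 8 of 34 subunit promoters (23.5%) and in 6.38% of 21263 coding promoters. The 34 windows belong to 32 genes, and the 8 with NRF1 letters to 7 genes, since 2 overlapping windows of Ndufa5 hold the same site. YY1 letters were found in 7 of 34 subunit promoters (20.6%) and in 3.12% of coding promoters, and ETS letters in 4 of 34 (11.8%) and in 11.6%. Among 7 assembly factor promoters, NRF1 and ETS letters were each found in 2 and YY1 letters in 1. The ERR motif, TCAAGGTCA, was found in none of the 34 subunit windows or the 7 assembly factor windows, and in 0.334% of coding promoters. These are letter matches, and binding was not measured.

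Subunit transcripts were far more abundant than assembly factor transcripts. The mean level over 24 libraries, in CPM per kilobase of the median coding transcript, had a median of 75.9 over subunits and ran from 3.57 to 14.2 for assembly factors (median 7.30). Ndufb9, a distal membrane accessory subunit, stood at 211.7 ± 29.6 (SD, n = 24) and Ndufb5, of the same module, at 173 ± 26.5. The lowest subunit was Ndufb2, also of the distal membrane module, at 13 ± 2.23 CPM per kilobase. The 7 nuclear core subunits, which carry the flavin and iron-sulphur clusters, had a median of 116.7 CPM per kilobase. Module medians were 80.4 for the N module, 86.0 for the Q module, 71.3 for the proximal and 68.0 for the distal membrane module.

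Among assembly factors, Ndufaf5, which hydroxylates Ndufs7, was highest at 14.2 ± 2.23 CPM per kilobase (SD, n = 24), and Ndufaf1, of the membrane arm assembly complex, followed at 11.98 ± 2.22. Ndufaf6, an early assembly factor, stood at 9.75 ± 1.18, and Ndufaf8, the partner of Ndufaf5, at 8.20 ± 1.21. Ndufaf4 and Ndufaf3, which act together on the Q module, stood at 6.40 ± 1.341 and 4.27 ± 0.526. The lowest were Ndufaf2, which acts late on the N module, at 3.67 ± 0.674, and Ndufaf7, a mitochondrial methyltransferase, at 3.57 ± 0.508, which did not differ beyond their spread. Of the genes outside the complex, Ndufa4 was above every subunit at 280.5 ± 35.5 and Ndufa4l2 stood at 4.43 ± 0.826. The order depends on the transcript length used: over all annotated exons of a gene, Ndufb2 stood at 5.57 and Ndufb7, another distal membrane subunit, stood at 9.39 in place of 68.2 CPM per kilobase.

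**Figure D1:**
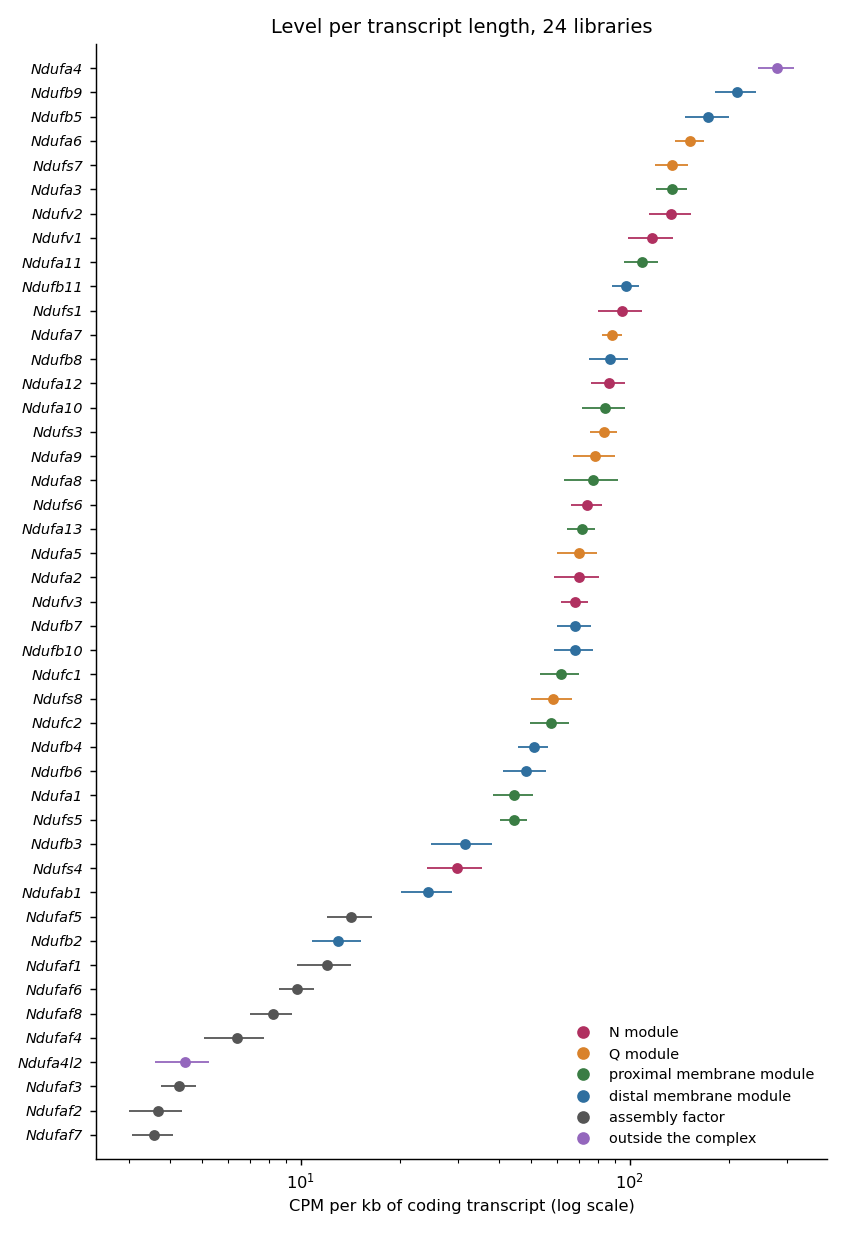
Mean level of 45 complex I genes over 24 libraries, in CPM per kilobase of coding transcript on a log axis, with bars of 1 SD and colours for class and module. Assembly factors lie at 14.2 or below, while the plotted subunits run from 13 (Ndufb2) to 211.7 (Ndufb9).

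Ndufb1, a small accessory subunit of the distal membrane module, was 1 of the genes called in females, where its level in SMC mice fell by 44.2% against sham mice. The same low level was also found in 2 of the 6 SMC males, those with the highest library numbers of their group, and not in the other 4. Its level in female sham libraries had a lowest value of 9.59, a median of 10.97 and a highest of 13.4 CPM. In female SMC libraries it was 5.93, 6.17 and 7.09 CPM in the same order. Every SMC female lay below every sham female. The log2 fold change was -0.84 ± 0.15 (SE), with an adjusted p of 0.0228 by edgeR's quasi-likelihood test, and Ndufb1 stood at rank 4 by p among the 56 genes called in females (0.341% of those tested, 0.219% lower). Groups without overlap and lower in SMC were found for 0.634% of all genes. Ndufb1 was named after its values were seen, since it lies outside the 46 genes.

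The step in Ndufb1 fell between the libraries numbered 16 and 17, inside the male SMC group. Male SMC replicates 13 to 16 stood at 8.33 to 13.1 CPM (median 11.8), where all but replicate 14 lay within the range of the sham mice, and replicates 17 and 18 at 6.23 and 6.49 CPM, the level of the SMC females, which are numbered 19 to 24. All 8 libraries numbered 17 to 24 (5.93 to 7.09 CPM) lay below all 16 numbered 1 to 16 (8.33 to 15.3 CPM). This split, looked for after the Ndufb1 values were seen, was found in the lower direction for 6 of 16408 genes (0.0366%) and in the higher direction for 5 (0.0305%). The others of the 6 were Brwd1, a bromodomain protein gene, and the ribosomal protein genes Rpl22l1, Rpl9, Rps10 and Rps21. None of the 46 genes split in this way. Within SMC males alone, 7 of the 46 (15.2%) were higher in replicates 17 and 18 than in replicates 13 to 16, beside 8.97% of all genes. These were Ndufa7, Ndufa10, Ndufa11, Ndufa12, Ndufb4, Ndufs7 and Ndufv2. Ndufaf5 and Ndufaf6 were lower (4.35% of the 46, beside 10.8% of all genes). This comparison too was made after the Ndufb1 values were seen. What the numbers stand for is not given in the sources used here, and since every SMC female is numbered above 18, the library number and the SMC condition cannot be told apart in females. Each group holds its own run of numbers, so library number also follows the group in the male SMC comparison and between sham mice.

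In sham males Ndufb1 ran from 11.1 to 15.3 CPM (median 13.5), above replicates 17 and 18 of the SMC males and overlapping the other 4. The male log2 fold change was -0.48 ± 0.15 (SE), with an edgeR adjusted p of 0.211, and -0.26 ± 0.12 (SE, adjusted p = 0.614) without replicates 17 and 18, which were left out after their values were seen. The male and female responses differed by 0.36 ± 0.21 on the log2 scale (interaction adjusted p = 0.955), so a difference between the sexes was not shown. It was 0.57 ± 0.16 (SE, adjusted p = 0.717) without those 2 libraries. The female call was held by DESeq2 (adjusted p = 0.000206) and limma (adjusted p = 0.0438), and it was lost, with adjusted p from just above 0.05 to 0.0590, without female sham replicate 8 or female SMC replicates 20, 22 or 23. The gene was counted from 131 to 583 reads per library, and 12.7% of its exon bases lie on the strand opposite to exons of Cpsf2, a pre-mRNA cleavage factor whose female log2 fold change was 0.091 ± 0.071 (SE). Whether the counting used strand is not given in the sources used here.

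**Figure D2:**
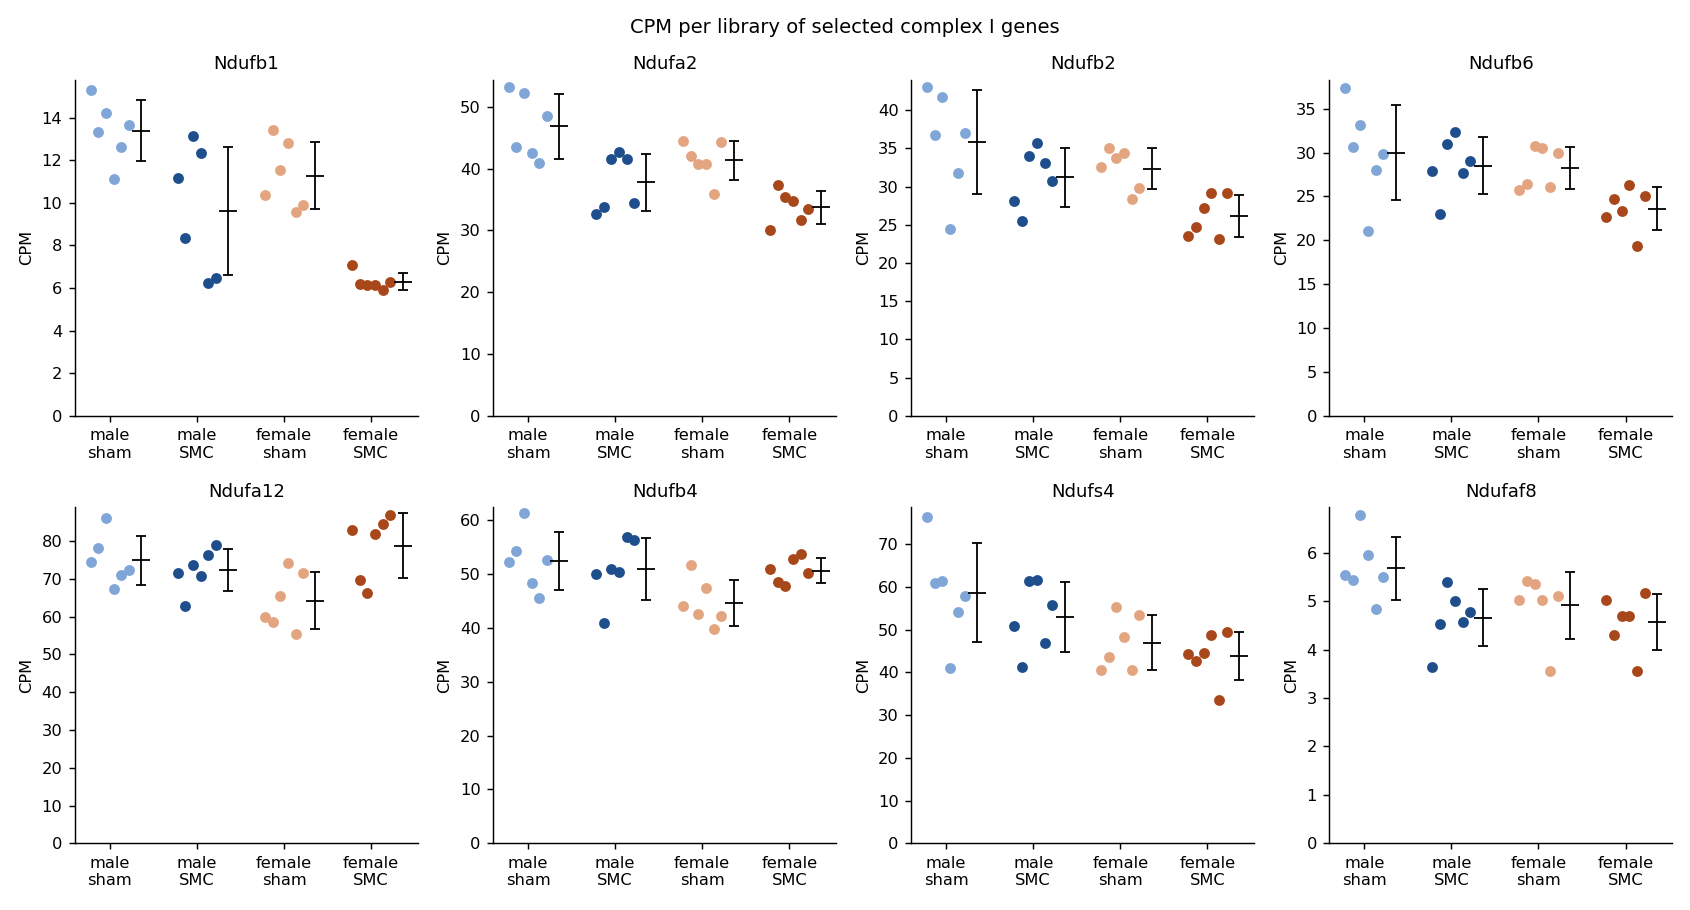
CPM in each library for 8 complex I genes, with 6 points per group and a bar for the mean ± SD beside them; axes start at 0. Ndufb1 lies between 5.93 and 7.09 CPM in female SMC and between 9.59 and 13.4 CPM in female sham, while the groups overlap for the other 7 genes.

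In males, none of the 46 genes passed the adjusted threshold after SMC (0% of all genes did), and 29 of 36 subunits had a lower mean in SMC (50.9% of all genes did). By edgeR 3 genes had an unadjusted p under 0.05, all of them lower in SMC, beside 11% of all genes in either direction and 5.59% lower. These were Ndufa2, an N module accessory subunit, Ndufa13, a proximal membrane accessory subunit, and Ndufaf8. DESeq2 also gave 3 at that level and called Ndufa2, and limma gave 5 and called none. The subunit median was a log2 fold change of -0.056, beside -0.0044 over all genes. Of the other respiratory chain lists, 7 of 9 genes of complex III, 11 of 11 of complex IV and 13 of 15 of complex V were lower. Their medians were -0.068, -0.081 and -0.052, so the direction is not particular to complex I. In complex II 1 of 4 was lower (median 0.016). Of the marker lists, all 5 red blood cell, all 5 macrophage and 5 of 6 adipocyte markers had a lower mean in SMC males (medians -0.427, -0.167 and -0.317). Higher were all 5 Schwann cell (median 0.368), 4 of 5 endothelial cell (0.107) and 6 of 10 slow fibre markers (0.508). The muscle, fast fibre, fibroblast and tendon cell lists were divided. Their part in the values was not tested beyond a fit with the slow fibre score as covariate.

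Ndufa2 had a lowest value of 41.0, a median of 46.0 and a highest of 53.2 CPM in male sham, and 32.7, 37.9 and 42.7 CPM in male SMC. Female sham libraries ran from 35.9 to 44.4 CPM (median 41.4) and female SMC libraries from 29.98 to 37.4 CPM (median 34.1). SMC libraries lay low in both sexes, with a narrow overlap in each. The log2 fold change was -0.31 ± 0.084 (SE, edgeR adjusted p = 0.161) in males and -0.29 ± 0.084 (adjusted p = 0.113) in females. Tmco6, whose exons on the opposite strand cover 11.5% of Ndufa2, had log2 fold changes of -0.20 ± 0.17 and -0.15 ± 0.17 (SE).

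Ndufa13 ran from 85.3 to 115.6 CPM in male sham (median 97.2) and from 73.7 to 102.5 CPM in male SMC (median 86.1), a log2 fold change of -0.16 ± 0.075 (SE, edgeR adjusted p = 0.415). The ranges overlapped over most of their width. By module, the distal membrane module had the lowest male median, -0.105, with 10 of 11 subunits lower, among them Ndufb3 at -0.20 ± 0.16 and Ndufb2 at -0.20 ± 0.11 (SE). The N module had 6 of 8 lower (median -0.023), the Q module 6 of 8 (-0.049) and the proximal membrane module 7 of 9 (-0.074). At the other end stood Ndufa10 and Ndufa8, of the proximal membrane module, at 0.087 ± 0.12 and 0.086 ± 0.14, and Ndufv2, an iron-sulphur core subunit of the N module, at 0.076 ± 0.11 (SE). Of the 7 nuclear core subunits 3 were lower (median 0.017).

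The mean log2 CPM of the 36 subunits had the same median, 6.15, in male sham and male SMC libraries, with ranges of 5.76 to 6.32 and 5.71 to 6.22. Male sham replicate 4 was lowest of its group for 32 of 36 subunits and 7 of 8 assembly factors, and male SMC replicate 14 for 33 of 36 subunits. Without male sham replicate 4 the male subunit median was -0.140 with 34 of 36 lower and 8 members at an unadjusted p under 0.05. Without male SMC replicate 14 it was -0.0072 with 20 of 36 lower, and without male SMC replicate 16 there were 5 members at that p. Without male SMC replicates 17 and 18 the median was -0.116 with 35 of 36 lower. With both low libraries and female sham replicate 7 left out, a set picked after the values were seen, 28 of 36 subunits were lower with a median of -0.058. These 2 libraries also had the lowest slow fibre sums of their groups, and the part of fibre content in the difference was not tested beyond the fit with a slow fibre covariate.

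**Figure D3:**
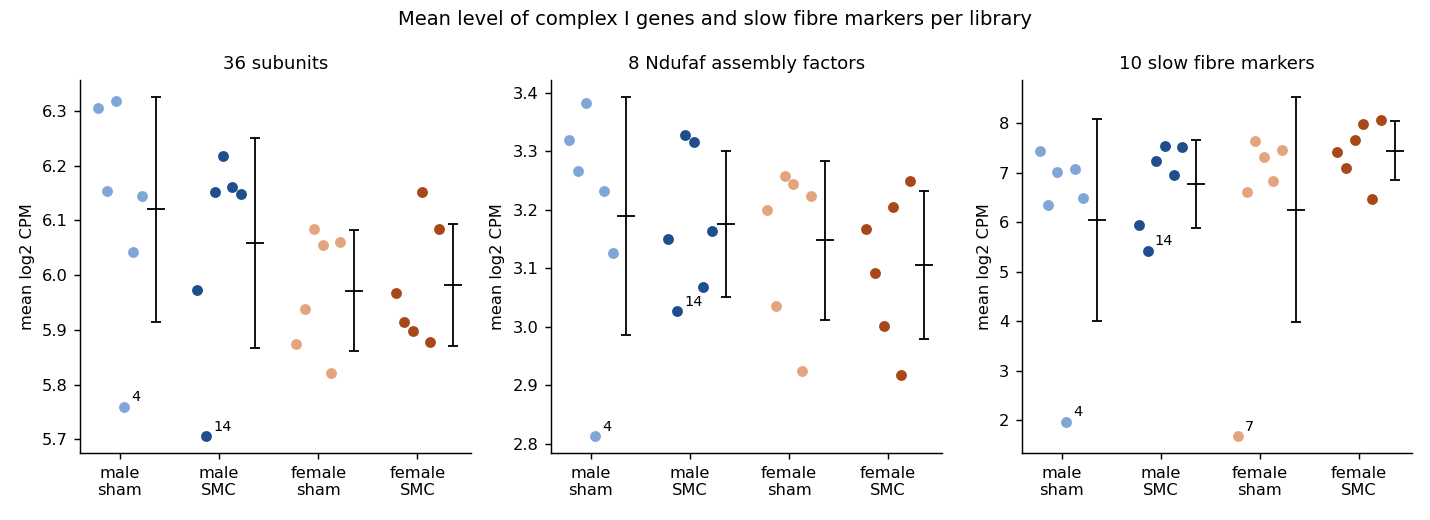
Mean log2 CPM per library of the 36 subunits, the 8 Ndufaf assembly factors and the 10 slow fibre markers, with 6 points per group, bars for mean ± SD and replicate numbers at the low libraries. Male sham replicate 4 is lowest of its group in all 3 panels, and all group ranges of subunits and assembly factors overlap.

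In females the subunit means lay on both sides: 20 of 36 had a higher mean in SMC and 16 a lower one (47.6% and 52.4% of all genes). None of the 46 genes was called by edgeR, DESeq2 or limma, while 7 had an unadjusted p under 0.05 by edgeR, beside 12.5% of all genes. DESeq2 gave 7 and limma 8 at that level. The subunit median was 0.020, beside -0.011 over all genes, and it was -0.116 on total counts alone, a scaling that shifted the median of all genes to -0.149. It was -0.065 with the slow fibre covariate, -0.0016 by limma, and -0.0028, -0.017 and -0.011 without female sham replicate 7, female sham replicate 11 or female SMC replicate 22. All 10 slow fibre markers (median 0.613), all 6 adipocyte markers (0.805) and all 5 endothelial cell markers (0.163) had a higher mean in SMC females. So had all 6 muscle (0.157), all 5 red blood cell (0.052), 9 of 10 fast fibre (0.116) and 4 of 5 Schwann cell markers (0.111). Lower were all 5 fibroblast (-0.317) and 4 of 5 tendon cell markers (-0.666), and macrophage markers were divided. Their part in the values was not tested beyond the slow fibre covariate.

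The 3 genes higher in SMC females at that level (5.02% of all genes) were Ndufa12 and Ndufv2 of the N module and Ndufb4 of the distal membrane module. Ndufa12, an accessory subunit related to the assembly factor Ndufaf2, had a lowest value of 55.3, a median of 62.7 and a highest of 74.3 CPM in female sham, and 66.2, 82.4 and 87.0 CPM in female SMC. The ranges overlapped between 66.2 and 74.3 CPM. Its log2 fold change was 0.29 ± 0.085 (SE, edgeR adjusted p = 0.113). Ndufv2 ran from 135.6 to 177.6 CPM in sham (median 152) and from 172 to 208 CPM in SMC (median 184), a log2 ratio of 0.28 ± 0.11 (SE, edgeR adjusted p = 0.284). Ndufb4 ran from 39.7 to 51.7 CPM and from 47.8 to 53.6 CPM, a log2 fold change of 0.18 ± 0.080 (SE, edgeR adjusted p = 0.336). SMC values of both genes lay mostly above the sham values, with an overlap. In SMC males, these 3 genes stood higher in replicates 17 and 18 than in replicates 13 to 16, as 8.97% of all genes did. Ndufb4, for example, stood at 56.8 and 56.3 CPM there, against 40.9 to 50.9 CPM. For these genes too, library number and SMC cannot be told apart in females.

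The 4 genes lower in SMC females (7.47% of all genes) were Ndufa2, given above, with Ndufb2 and Ndufb6 of the distal and Ndufa1 of the proximal membrane module. Ndufb2 had 28.4, 33.2 and 35.1 CPM as lowest, median and highest value in female sham and 23.1, 25.9 and 29.2 CPM in female SMC. The groups met only between 28.4 and 29.2 CPM. Its log2 fold change was -0.31 ± 0.11 (SE, edgeR adjusted p = 0.212). Ndufb2 was called with the slow fibre score as covariate, a score far lower in female sham replicate 7 than in the other females. Ndufb6 ran from 25.8 to 30.7 CPM in sham and from 19.4 to 26.3 CPM in SMC, a log2 ratio of -0.26 ± 0.11 (SE, edgeR adjusted p = 0.286). It was also called with that covariate, and 39.0% of its exon bases lie opposite to Smim27, whose female log2 fold change was -0.20 ± 0.15 (SE). Ndufa1, an X-linked accessory subunit, ran from 17.8 to 21.6 CPM in sham and from 14.9 to 19.2 CPM in SMC, a log2 ratio of -0.25 ± 0.10 (SE, edgeR adjusted p = 0.282). All 3 had SMC values at the low end with some overlap.

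The female count of 7 became 4 without female sham replicate 12 or without female SMC replicate 23. By module, the female medians were 0.035 in the N module, 0.054 in the Q module, 0.058 in the proximal and -0.033 in the distal membrane module. Subunits lower in both sexes numbered 16 of 36 (44.4%, against 32.6% of all genes), and 13 of 36 (36.1%, against 18.3%) were lower in males and higher in females. These counts divide the 29 of 36 subunits lower in males, a share that the all-gene values do not match. They therefore show neither agreement nor opposition between the sexes. The male and female comparisons have no libraries in common.

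**Figure D4:**
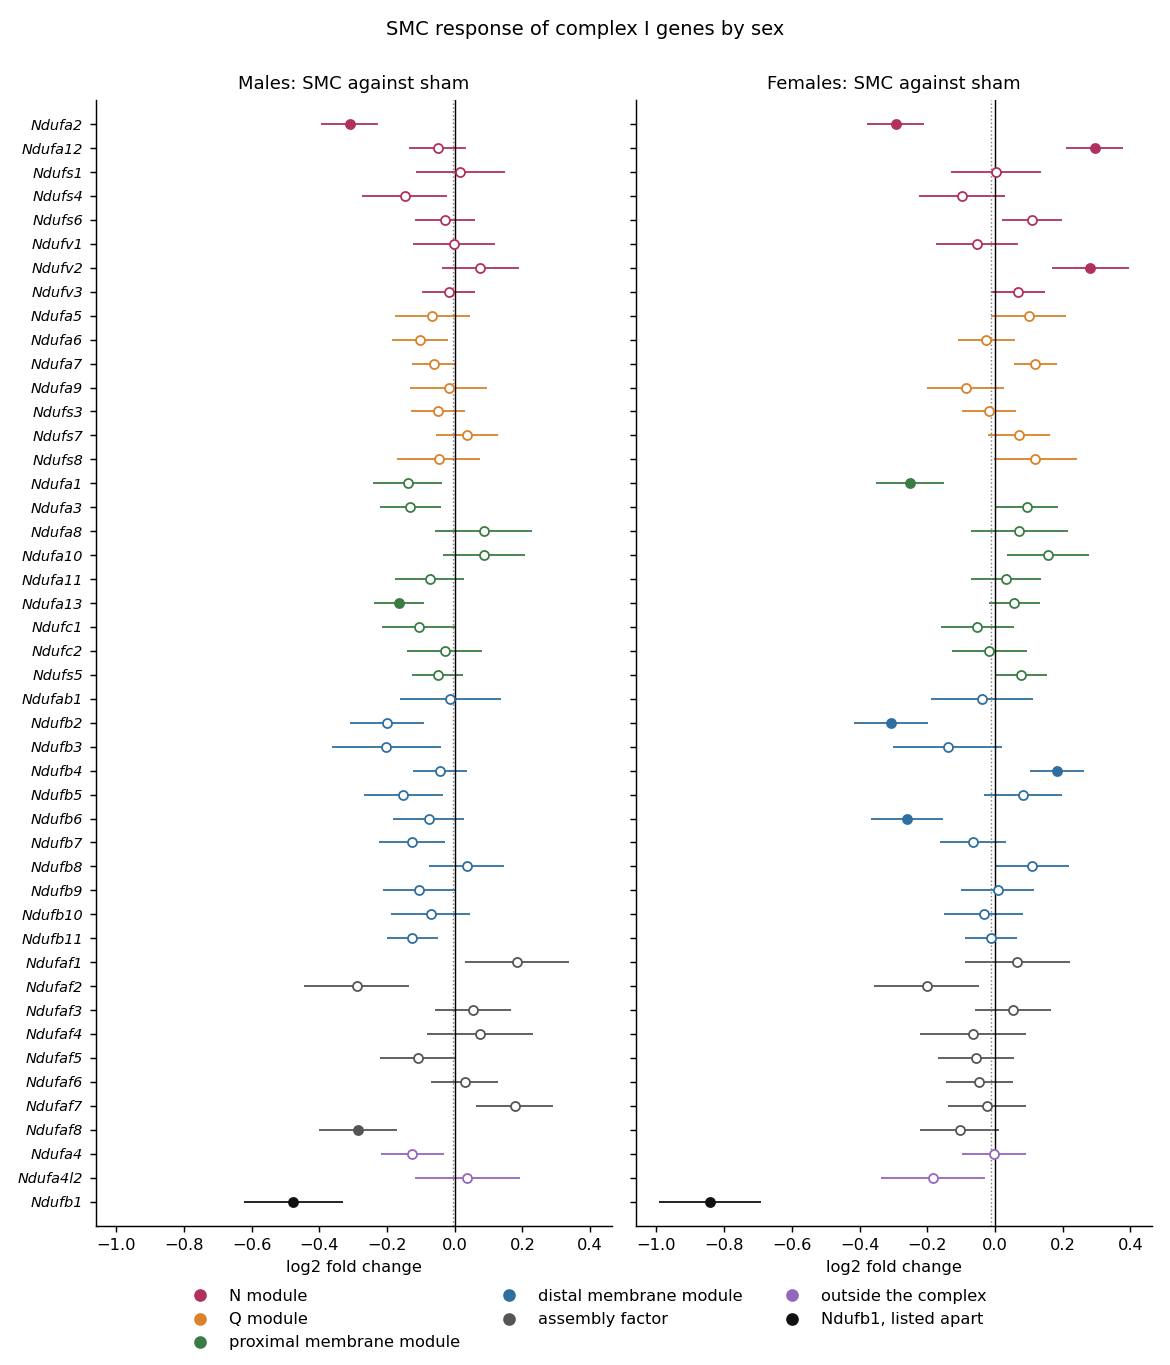
Log2 fold change of SMC against sham with bars of 1 SE for 46 complex I genes, Ndufb1 included, males on the left and females on the right, coloured by module, with filled points at unadjusted p under 0.05 and a dotted line at the median of all genes. In males 29 of the 35 plotted subunits lie below 0, in females 16 do, and Ndufb1 at the foot is lowest in both panels.

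The assembly factors had 3 of 8 genes lower in SMC males (median 0.041) and 6 of 8 lower in SMC females (median -0.051). The male direction rested on single libraries and on the scaling: 6 of 8 were lower without male sham replicate 4 (median -0.053) and on total counts alone (-0.094), and 5 of 8 without male SMC replicate 16 (-0.019), while the median was 0.088 without male sham replicate 3. Ndufaf8, which is needed to stabilise Ndufaf5, was the only one of the 8 at an unadjusted p under 0.05, in males. Its lowest, median and highest values were 4.84, 5.52 and 6.77 CPM in male sham and 3.65, 4.67 and 5.40 CPM in male SMC, a log2 ratio of -0.28 ± 0.12 (SE, edgeR adjusted p = 0.353). SMC males lay lower with an overlap. In females it ran from 3.55 to 5.42 CPM in sham and from 3.56 to 5.17 CPM in SMC.

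Ndufaf2 stood at -0.29 ± 0.15 in males and -0.20 ± 0.15 in females (log2 fold change ± SE, edgeR adjusted p = 0.504 and 0.644), with 1.40 to 3.07 CPM in all libraries, and 65.6% of its exon bases lie opposite to a long noncoding RNA. Ndufaf1 and Ndufaf7 stood highest in males, at 0.18 ± 0.15 and 0.18 ± 0.11 (SE). In females Ndufaf1 and Ndufaf3 stood highest, at 0.066 ± 0.15 and 0.053 ± 0.11, and Ndufaf8 was at -0.10 ± 0.12 (SE). The remaining assembly factors, Ndufaf4, Ndufaf5 and Ndufaf6, lay between -0.11 and 0.076 in both sexes. Mean log2 CPM of the 8 assembly factors ranged from 2.81 to 3.38 in male sham, 3.03 to 3.33 in male SMC, 2.93 to 3.26 in female sham and 2.92 to 3.25 in female SMC, and all 4 groups overlapped. The subunit mean minus the assembly factor mean had group medians of 2.94, 2.86, 2.83 and 2.87 in that order.

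The sex difference in the SMC response, tested as an interaction, was not called for any of the 46 genes (0% of all genes were), and the smallest adjusted p among them was 0.926. By edgeR 2 had an unadjusted p under 0.05, Ndufa12 and Ndufa13, beside 5.13% of all genes, and DESeq2 and limma each gave 4 with none called. Ndufa12 had a male response lower than the female by 0.34 on the log2 scale (difference -0.34 ± 0.12, SE) and Ndufa13 had a difference of -0.22 ± 0.11 (SE). The difference was negative for 27 of 36 subunits (48.4% of all genes), with a median of -0.066, and for 3 of 8 assembly factors, with a median of 0.038. It was also negative for 6 of 9 genes of complex III, 10 of 11 of complex IV and 11 of 15 of complex V, and for 1 of 4 of complex II. The count of 2 became 7 without male sham replicate 4, 5 without male SMC replicate 18 or without both replicates 17 and 18, and 4 without male sham replicate 5, male SMC replicate 17 or female SMC replicate 21. It became 1 without male sham replicates 1, 2, 3 or 6, female sham replicates 9 or 11, male SMC replicates 13, 14 or 15, or female SMC replicates 20, 23 or 24.

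Between sham mice, all 36 subunits had a higher mean in males than in females, with log2 differences from 0.039 to 0.32 and a median of 0.148 (49.6% of all genes were higher, median -0.0022). None of the 46 genes was called by edgeR, DESeq2 or limma, against 1.97% of all genes. By edgeR 9 had an unadjusted p under 0.05, all higher in males, beside 15.5% of all genes and 6.23% higher, and DESeq2 gave 10 and limma 11. With the slow fibre covariate the count was 15 and Ndufs4 was called, and on total counts alone it was 3. No gene of the 46 was without overlap between the groups, as 0.609% of all genes were with males higher. The assembly factors were divided, with 5 of 8 higher in males and a median of 0.010. That median was below 0 by limma (-0.0042) and without male sham replicates 1 (-0.0013) or 3 (-0.012) or female sham replicates 8 (-0.0061) or 11 (-0.015).

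Ndufs4, an accessory N module subunit whose loss in mice gives a Leigh-like disease, had the highest difference. Its lowest, median and highest values were 40.9, 59.4 and 76.4 CPM in male sham and 40.5, 45.9 and 55.2 CPM in female sham. Males reached higher values, and the lowest library of each sex stood at nearly the same level. The log2 difference was 0.32 ± 0.13 (SE, edgeR adjusted p = 0.201), and it was called with the slow fibre score as covariate, at 0.33 ± 0.093 (SE, adjusted p = 0.0439). That score was 1.96 in male sham replicate 4, 1.67 in female sham replicate 7 and 5.42 or higher elsewhere. The covariate therefore mainly sets these 2 libraries apart. Ndufb4 ran from 45.5 to 61.2 CPM in males (median 52.4) and from 39.7 to 51.7 CPM in females (median 43.3), a log2 difference of 0.23 ± 0.080 (SE, edgeR adjusted p = 0.137), the smallest adjusted p of the 46. The upper part of the male range lay above every female.

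Ndufb5 of the distal membrane module ran from 82.3 to 147 CPM in males and from 89.1 to 110.1 CPM in females (log2 difference 0.28 ± 0.12, SE). The other subunits at that level were Ndufa12, Ndufa13, Ndufb9, Ndufs5 and Ndufa2, with log2 differences from 0.163 to 0.231. Ndufa4, outside the complex, ran from 117 to 167 CPM in males and from 105 to 139.6 CPM in females (log2 difference 0.23 ± 0.094, SE). Males were spread more widely than females for Ndufb5 and Ndufa4 and overlapped them for every gene. The lowest differences among subunits were those of Ndufa1 (0.039 ± 0.10), Ndufb6 (0.089 ± 0.11) and Ndufb10, a distal membrane subunit (0.094 ± 0.12, SE). Ndufb11, the other X-linked subunit, stood at 0.15 ± 0.076 (SE). Ndufaf4 and Ndufaf8 were each at 0.21, with SE 0.16 and 0.12, and Ndufaf5 and Ndufaf1 at -0.12 ± 0.11 and -0.018 ± 0.15. The Ndufaf5 value rested on female sham replicate 7, at 26.4 CPM against 15.2 to 17.3 CPM in the other 5, and without it the difference was 0.031 ± 0.085 (SE). Ndufb1 stood at 0.25 ± 0.15 (SE, edgeR adjusted p = 0.432).

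The count of 9 rested on single libraries: it was 24 without male sham replicate 4, 2 without replicate 3 of that group, and 4 without replicate 1 of that group or female sham replicate 11. The subunit median was 0.221 with replicate 4 left out and 0.108 with replicate 3 left out. The direction held for 36 of 36 subunits with each library left out except male sham replicate 1, where it held for 35. Male sham replicates 1 and 3 were the highest of their group for 16 and 20 of the 36 subunits. No fit left out both, so how far the shared direction rests on these mice was not tested. With male sham replicate 4, female sham replicate 7 and male SMC replicate 14 left out, 25 members were at that p and 8 of 8 assembly factors were higher in males. Ndufb5 was then called at 0.33 ± 0.092 (SE, edgeR adjusted p = 0.0473). These libraries were picked after their values were seen. Male sham replicate 4 was lowest of its group for 32 of 36 subunits and 7 of 8 assembly factors. Leaving it out raises the sham male means, so these results are not separate support for the difference. The same direction was seen in other respiratory chain lists, with 4 of 4 genes of complex II higher in sham males, 9 of 9 of complex III, 11 of 11 of complex IV and 15 of 15 of complex V. Their medians were 0.110, 0.177, 0.195 and 0.144, so the direction is not particular to complex I. Of the marker lists, all 5 endothelial cell markers (median 0.198) and all 5 red blood cell markers (0.574) had a higher mean in sham males. Lower in sham males were the means of all 5 Schwann cell markers (median -0.574), 5 of 6 adipocyte (-0.579), 4 of 5 tendon cell (-0.534), 4 of 5 fibroblast (-0.227) and 6 of 10 slow fibre markers (-0.386). Summed endothelial cell markers ran from 230 to 313 CPM in sham males and from 175 to 319 CPM in sham females, and summed Schwann cell markers from 47.0 to 94.8 CPM and from 63.3 to 178.9 CPM. None of these markers was called, and their part in the subunit difference was not tested.

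**Figure D5:**
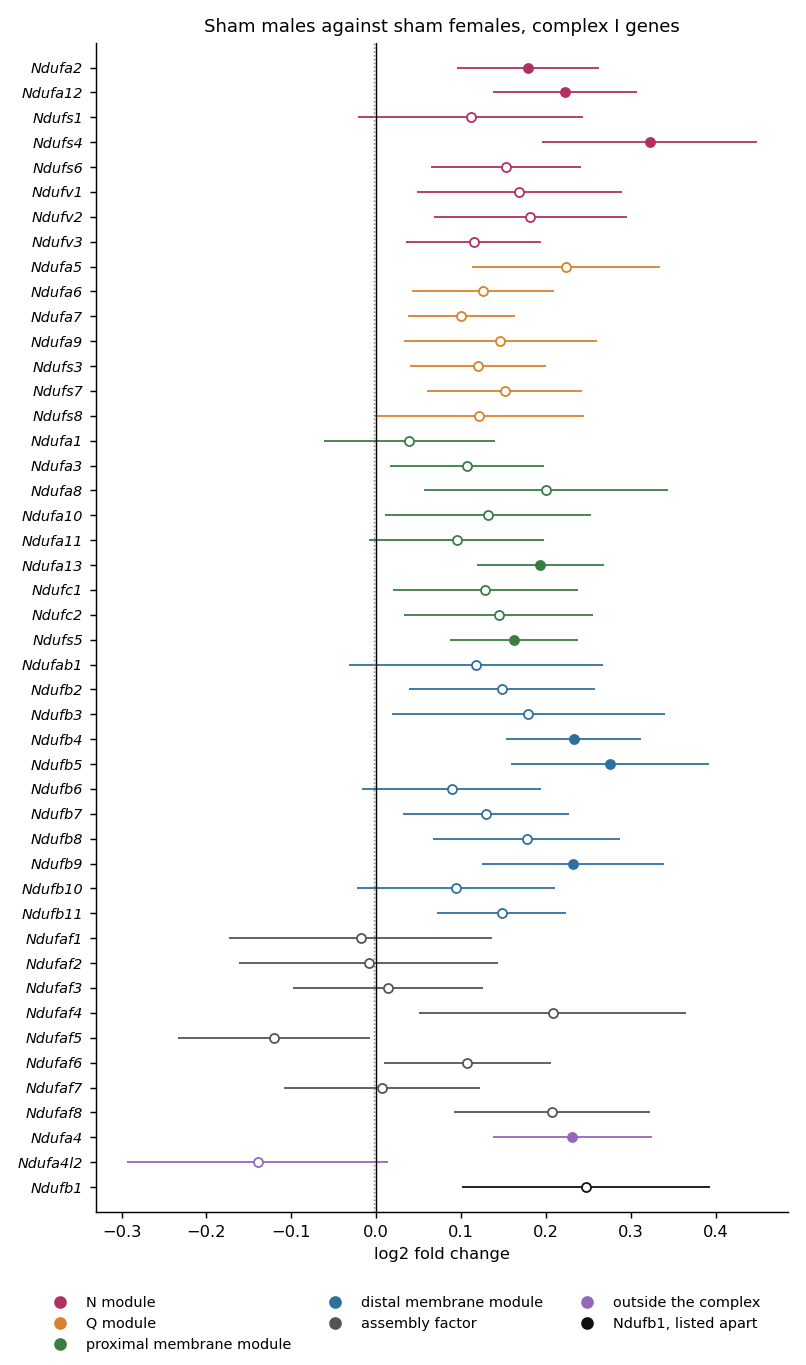
Log2 difference of sham males against sham females with bars of 1 SE for 46 complex I genes, Ndufb1 included, coloured by module, with filled points at unadjusted p under 0.05. All 35 plotted subunits lie above 0, from 0.039 (Ndufa1) to 0.32 (Ndufs4), and 5 of the 8 assembly factors do.

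Complex I genes outside the naming rule were given by fixed lists. Of 14 assembly factors without the Nduf name, 8 were higher and 6 lower in SMC in each sex, and none was called or had an unadjusted p under 0.05 in either. In sham mice 12 of 14 were higher in males, with Chchd4, an import factor of the intermembrane space, at 0.26 ± 0.12 (SE, edgeR adjusted p = 0.291). The 7 complex I genes of the mitochondrial genome encode the core of the proton pumps. They were higher in SMC for 7 of 7 in males and 6 of 7 in females, with medians of 0.251 and 0.382, beside 49.1% and 47.6% of all genes with a higher mean. None was called by edgeR, and 1 in males and 4 in females had an unadjusted p under 0.05, all higher, beside 5.41% and 5.02% of all genes higher at that p. The highest values were those of mt-Nd4l in males (1.93 ± 0.55, SE, edgeR adjusted p = 0.188) and mt-Nd3 in females (1.21 ± 0.34, SE, edgeR adjusted p = 0.106). In males the others ran from 0.054 ± 0.21 (mt-Nd6) to 0.34 ± 0.19 (mt-Nd2, SE). In females they ran from -0.046 ± 0.21 (mt-Nd6) to 0.77 ± 0.56 (mt-Nd4l, SE). Levels per library and fits with libraries left out are not given for these 7 genes.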

How the data were processed

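Total RNA of gastrocnemius was depleted of ribosomal RNA and made into strand-specific libraries. The authors deposited raw counts per Ensembl gene, 1 column per mouse, with no normalization; the submitters' processing notes list cutadapt 1.16, STAR 2.7.9a, featureCounts 1.6, DESeq2 1.34.0 and the build GRCm39, and the strand setting is not given in the sources used here. Symbols, gene types and lengths came from GENCODE M21, whose build (GRCm38) differs. Coordinates are printed only for the promoter windows, on GRCm38.p6, and not on the build used for counting. Genes were filtered by filterByExpr, scaled by TMM and tested with edgeR 4.0.16 (R 4.3.3) by quasi-likelihood with 1 mean per group over 24 libraries, two-sided, with Benjamini-Hochberg adjustment over 16408 genes and a threshold of 0.05. CPM used TMM library sizes and log2 CPM a prior count of 2. Alternatives were DESeq2 1.42.0, limma 3.58.1 with sample weights, total counts alone, at least 10 counts in every sample, no filter, the 12 libraries of a contrast, a slow fibre covariate, each library left out, and 3 sets of libraries left out that were chosen after seeing the data. The test was checked on simulated counts. Members, gene lists, motifs and the naming rule were chosen with earlier results of these data known. Named genes were members at an unadjusted p under 0.05, the 3 highest and 3 lowest subunits and the 2 highest and 2 lowest assembly factors of each comparison, the extremes per length, and every assembly factor. One subunit is counted with its class but is not reported here by its own values. Nothing in the labels says that the mice were independent beyond their separate libraries. The p-values set group differences against the spread between these samples, and they could be too small if mice of 1 group shared a cage. Counting error is part of the edgeR fit.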

Additional observations from a re-analysis of the deposited data

Results flagged for a closer look

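Some libraries lay far from the other 5 of their group, by the gap to the nearest library over the group's range. Of 132 groups of 6 examined, 11 values did so, and chance alone gives about 1 in 20 groups. The slow fibre score (mean log2 CPM) was 1.96 in male sham replicate 4 against 6.34 to 7.43 in the others, and 1.67 in female sham replicate 7 against 6.62 to 7.64. Male sham replicate 4 was also low for Ndufa10 (129 CPM against 169.8 to 191), Ndufaf4 (14.2 CPM against 25.0 to 30.1), Ndufb10 (36.9 CPM against 52.1 to 59.8) and Ndufv2 (123 CPM against 172 to 199). Male SMC replicate 14 was low for Ndufv2, 131.6 CPM against 187 to 215. Female sham replicate 7 was high for Ndufaf5, 26.4 CPM against 15.2 to 17.3, and female sham replicate 11 was low for Ndufaf8, 3.55 CPM against 5.02 to 5.42. Male sham replicate 3 was high for Ndufs5, 33.2 CPM against 25.1 to 28.0, and female SMC replicate 19 was high for Ndufb1, 7.09 CPM against 5.93 to 6.29.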

How the results depend on the processing

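No paired analysis was possible because the replicate numbers are unique and no groups share them. Counts of called members moved from 0 to 1 in males under DESeq2 (Ndufa2), to 2 in females (Ndufb2, Ndufb6) and to 1 in sham mice (Ndufs4) with the slow fibre covariate, and to 1 in sham mice (Ndufb5) without the 3 low libraries, which were picked after their values were seen. The female subunit median became -0.116 on total counts alone; that scaling moved the median of all genes to -0.133 in males and -0.149 in females, with 36 of 36 and 32 of 36 subunits lower. The cause of these moves was not tested. Members at an unadjusted p under 0.05 went from 3 to 7 in males, 7 to 4 in females, 9 to 3 in sham mice and 2 to 1 in the interaction on total counts alone, and from 3 to 10 in males and 9 to 15 in sham mice with the slow fibre covariate. In males limma gave 5, and the interaction count was 4 with DESeq2, limma or no filter and 1 with at least 10 counts in every sample. With each library left out, called counts stayed at 0. Ranges of medians for males were -0.140 to -0.0072 (subunits) and -0.053 to 0.088 (assembly factors). Female ranges were -0.017 to 0.063 and -0.097 to -0.012, and sham ranges 0.108 to 0.221 and -0.015 to 0.082.

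On total counts alone 7 of 36 subunits and 3 of 8 assembly factors turned direction in males, 16 and 2 in females, and 0 and 2 in sham mice, and 9 subunits turned in males without male SMC replicate 14. Of the genes named for a comparison, those that turned on total counts alone were Ndufaf1 (-0.051) and Ndufaf3 (-0.082) in females, Ndufa10 (-0.046), Ndufa8 (-0.059) and Ndufv2 (-0.065) in males, and Ndufaf1 in sham mice (0.031). With the slow fibre covariate they were Ndufaf1 (-0.069) and Ndufaf3 (-0.028) in females, and with no filter Ndufaf1 in sham mice (0.0018). With libraries left out, singly or in the added sets, log2 fold changes ranged from -0.0059 to 0.155 for Ndufaf1 in females, -0.027 to 0.176 for Ndufa8, -0.035 to 0.181 for Ndufa10 and -0.028 to 0.157 for Ndufv2 in males, and, in sham mice, -0.0070 to 0.078 for Ndufa1, -0.083 to 0.081 for Ndufaf1 and -0.160 to 0.085 for Ndufaf5.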
